A study of Mus musculus with 6 samples.

Results

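The miR-302 cluster is a group of microRNA (miRNA) genes, ending in mir-367, that lie side by side on mouse chromosome 3. It was taken from the small-RNA table by name, as the rows mir-302a, mir-302b, mir-302c, mir-302d and mir-367, which gave 5 of the 898 miRNA genes listed. The libraries came from mouse E14Tg2a embryonic stem cells (ESCs), an established line, at passages 37 to 40, and were of 2 kinds. For 3 libraries the cells grew with leukemia inhibitory factor (LIF), and the other 3 were of neuronal cells (NCs). These were monolayers of the same line kept without LIF and given 1 µM retinoic acid (RA) for 48 hours. Total RNA was taken from 2 plates of 60 mm, and separate handling of the replicates is stated for the mRNA samples. The study calls its mRNA replicates independent biological ones, but whether the small-RNA samples were separate cultures is not given in the sources used here, so p-values measure the spread between these samples, which may be technical. The labels call the ESCs pluripotent. Whether they were in a naive or a primed state was not measured here.

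A miRNA is a short RNA cut from a hairpin, which lowers the output of messenger RNAs that pair with its seed, the bases 2 to 8 from its 5′ end. The hairpins of the miR-302 cluster are cut from 1 shared transcript, so the members are made together. In mouse the cluster is best known from the epiblast and from primed pluripotent cells, and the miR-290 to miR-295 cluster, which carries the same seed on several members, is known as the main pluripotency cluster of naive ESCs. miRNAs with that seed are known for shortening the G1 phase of the cell cycle by acting on inhibitors such as Cdkn1a. The question here was what became of the cluster when ESCs left pluripotency under RA.

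The mature sequences show which members can act on the same targets. They are given as RefSeq lists them on GRCm38.p6, 5′ to 3′ in lower case with the seed in capitals. All 5 members matched a RefSeq gene by name. The 3p arms, from the 3′ side of each hairpin, are the arms usually regarded as the active ones in this family, and their entries on the plus strand of chromosome 3 are these.
miR-302b-3p: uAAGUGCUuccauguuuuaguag
miR-302c-3p: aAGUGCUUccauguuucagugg
miR-302d-3p: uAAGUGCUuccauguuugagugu
miR-367-3p: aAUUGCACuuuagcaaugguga
miR-302b-3p (127545275 to 127545297) and miR-302d-3p (127545665 to 127545687) had the same seed, AAGUGCU, and shared their first 17 of 23 bases. The RefSeq entry of miR-302c-3p (127545406 to 127545427) had the same run from its base 1 as the other two from their base 2, for 16 bases. Its bases 2 to 8 were therefore AGUGCUU, and an RNA that started 1 base earlier on the RefSeq hairpin would carry AAGUGCU. miR-367-3p (127545779 to 127545800) had another seed, AUUGCAC, and shared no run longer than 5 bases with the other 3p arms listed. The mature entry of miR-302a-3p was not used here. The 5p arm of that hairpin is listed in RefSeq.
miR-302a-5p: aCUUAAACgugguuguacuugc
The deposited table counts reads per miRNA gene and does not part the 2 arms. The 3p arms of mir-302b, mir-302c and mir-302d differ mainly in their last bases, so reads that end early could belong to more than 1 of them, and how the authors assigned such reads is not given in the sources used here.

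The members sit close together on the plus strand (GENCODE M21, GRCm38). Their order is mir-302b (127545228 to 127545301), mir-302c (127545363 to 127545430), mir-302a (127545496 to 127545564), mir-302d (127545624 to 127545689) and mir-367 (127545733 to 127545807). The hairpins are 66 to 75 bases long, the gaps between them are 43 to 65 bases, and the whole run spans 580 bases. All 5 hairpins lie in 1 intron of Larp7, which encodes a La-related protein that binds the 7SK RNA. The gene lies on the minus strand (127536714 to 127553349), so the cluster is antisense to its host. This intron runs from 127544279 to 127545825, between exons 8 and 9 of the 13 of its main transcript, and 0 hairpins overlapped an exon. The mir-367 hairpin ends 18 bases before the nearest Larp7 exon.

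**Figure D1:**
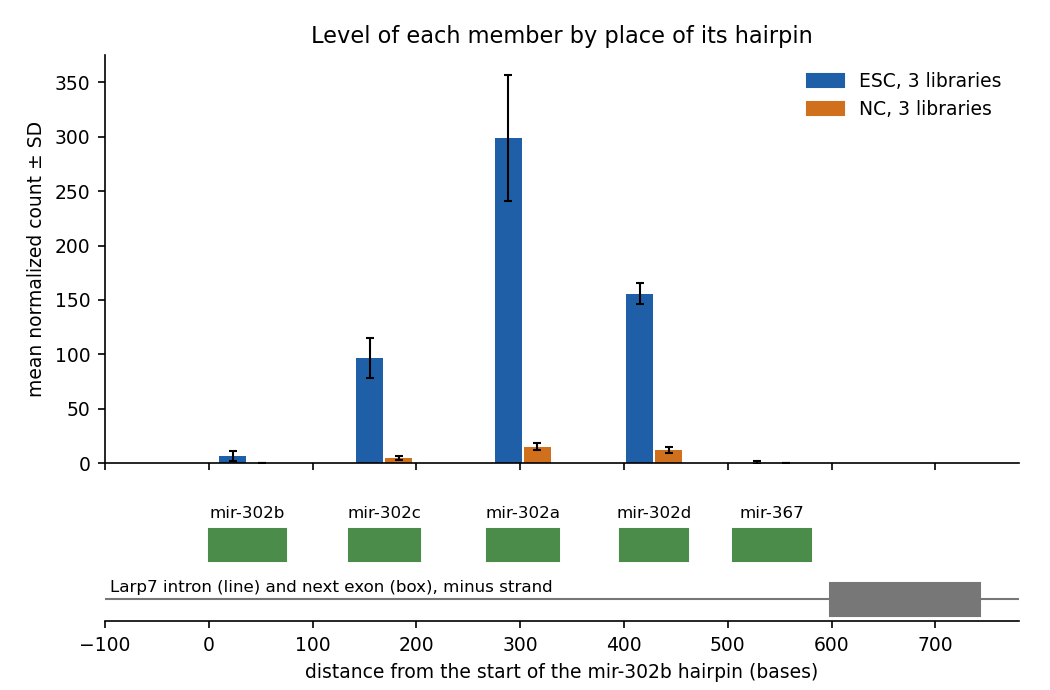
The upper panel plots the mean normalized count of each member (bars, with SD over 3 libraries as error bars) at the place of its hairpin, and the lower panel draws the hairpins and the nearest Larp7 exon to scale, with distance in bases from the start of mir-302b on the x axis. The ESC level was highest for mir-302a in the middle of the run (299) and lowest for mir-302b and mir-367 at its ends (6.84 and 0.616).

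Values are normalized counts, which are reads divided by the size factor of their library. The authors deposited group means, and the reads of single libraries were recovered from them. Within each group the libraries are called A, B and C, where A has the largest size factor and C the smallest. Size factors ran from 0.547 to 1.62 for ESCs and from 0.585 to 2.31 for NCs, and a library held 99810 to 371396 resolved reads. Libraries A and B are called the deeper ones and C the shallowest by size factor. In ESCs, B and C were close in resolved reads, with 129268 and 120375, at size factors of 0.937 and 0.547. The very abundant miRNAs were not resolved, so the reads stand for 14.7% of all signal in ESCs and for 10.4% of it in NCs. All 5 members were resolved in every library. A count of a whole miRNA needs no correction for length, so the levels of members can be set side by side, although the efficiency of library making for each sequence was not measured. Among miRNAs fixed as markers, the summed means of 6 genes of the miR-290 to miR-295 cluster were 137152 in ESCs and 31367 in NCs, and those of 12 neural miRNAs were 1483 and 3066. Most of the neural sum came from mir-9-1, mir-9-2 and mir-9-3, with means of 420 to 423 in ESCs and 767 to 768 in NCs. Of the 12 neural miRNAs, 2 were at 0 in both groups and 1, mir-128-1, was lower in NCs. Of 8 miRNAs of other lineages, 5 were listed at 0 in ESCs and 6 in NCs, while mir-142, known from blood cells, had means of 924 and 357. The NCs thus still held the pluripotency miRNAs, and with bulk RNA fewer cells of a type and less RNA per cell cannot be told apart.

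The cluster as a whole was lower in NCs in every library. Summed over the 5 members, ESC libraries A, B and C held 599, 596 and 480 normalized counts, from 972, 559 and 263 reads. The NC libraries held 33.4, 32.8 and 30.8, from 77, 32 and 18 reads. The groups did not overlap, and the lowest ESC library was 14.4-fold above the highest NC library. The means were 559 ± 67.7 (SD, n = 3) in ESCs and 32.3 ± 1.36 (SD, n = 3) in NCs, a 17.3-fold difference. With 3 libraries against 3 the two-sided exact permutation test gave p = 0.1, the smallest value this design allows. The cluster made up 0.0485% of the summed means of all miRNAs in ESCs and 0.00202% in NCs, where mir-10a alone had a mean of 754551. In ESCs the largest miRNA was mir-182, with a mean of 400664.

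mir-302a was the most abundant member in ESCs. It held 319, 345 and 234 normalized counts in ESC libraries A, B and C and 14.7, 18.4 and 12.0 in the NC libraries. Every NC library lay far below every ESC library, with a gap of 12.7-fold between the nearest pair. Its level fell in NCs, with a log2 difference of -4.23 (SE 0.32) in limma-voom, an adjusted p of 0.000465 and a 95% interval of 11.0-fold to 31.8-fold.

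mir-302d came second in ESCs and had the most even values there. Its ESC libraries held 155, 146 and 166 normalized counts, a coefficient of variation of 6.45% against 19.4% for mir-302a and 19.1% for mir-302c. Its NC libraries held 11.3, 10.2 and 15.4. The groups were apart by 9.50-fold at their nearest libraries, and mir-302d fell by 3.69 on the log2 scale (SE 0.29, adjusted p = 0.000465, limma-voom), which is 12.9-fold with a 95% interval of 8.06 to 20.8.

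mir-302c came next. It held 115, 94.9 and 78.6 normalized counts in the ESC libraries and 7.37, 4.10 and 3.42 in the NC libraries, from 17, 4 and 2 reads. The groups did not overlap, and its level fell by 4.06 on the log2 scale (SE 0.42, adjusted p = 0.00102, limma-voom), or 16.6-fold with a 95% interval of 8.30 to 33.3.

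These 3 were the members with enough reads for the test, and all 3 were called lower in NCs. Among the 317 miRNAs tested, 18 (5.68%) were called lower and 50 (15.8%) were called in either direction at an adjusted p under 0.05. Every NC library lay below every ESC library in 45 (14.2%) of the 317, and in all 3 of the members tested. The filter asked for at least 10 reads in 3 libraries, which the ESC libraries alone met for each of them. Their median log2 difference was -4.06, against -0.06 over all miRNAs tested. Ordered from the lowest log2 difference, mir-302a, mir-302c and mir-302d held the places 2, 3 and 4 of 317. The miRNA in the first place was mir-211, which is known from pigment cells, at -4.24 (SE 0.35). In the 11 alternative settings that tested them, each of the 3 was called, and their log2 differences ranged from -4.42 to -4.11 for mir-302a, from -4.43 to -3.90 for mir-302c and from -3.80 to -3.58 for mir-302d.

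**Figure D2:**
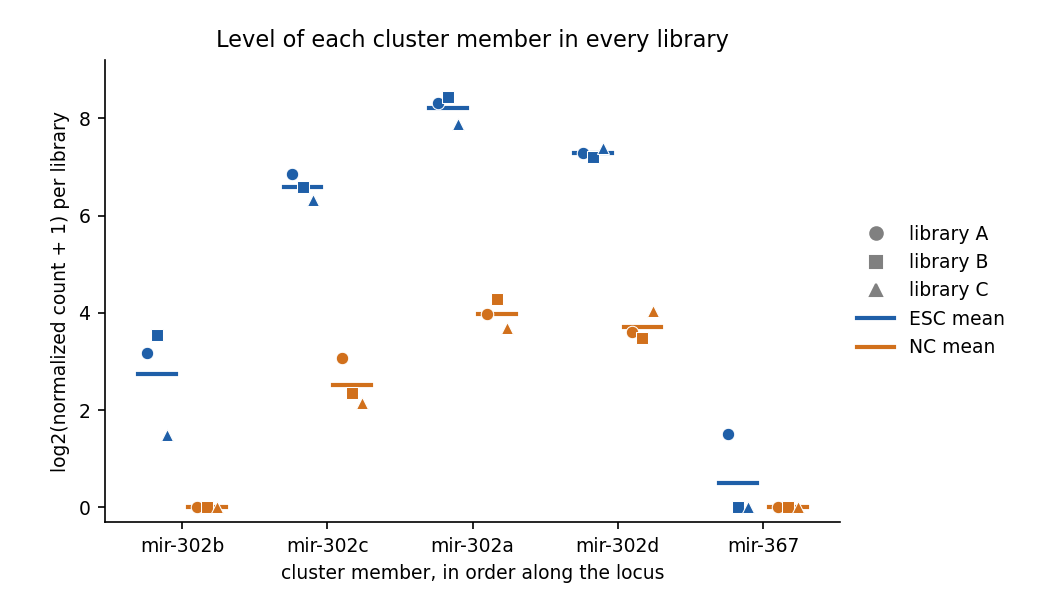
Each point is 1 library, with log2(normalized count + 1) on the y axis and the members in their order along the locus on the x axis. Blue marks ESCs, orange marks NCs, and lines give the mean of 3 libraries. The NC points of mir-302a, mir-302c and mir-302d lie well below all ESC points, mir-302b is at 0 in the 3 NC libraries, and mir-367 was seen in 1 ESC library.

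mir-302b, the first hairpin of the run, was rare in ESCs and was not detected in NCs. Its ESC libraries held 8.01, 10.7 and 1.83 normalized counts, from 13, 10 and 1 reads, and the NC libraries held 0 reads. The 24 ESC reads have an exact 95% Poisson interval of 15.4 to 35.7, for counting error only. With 3 reads over the NC group as the floor that a count of 0 allows, the pooled ESC level was 9.96-fold above that floor. The exact 95% interval of the ratio of pooled reads had its lower end at 7.49-fold, again for counting error only. It did not pass the filter on low counts. Without a filter, its adjusted p in limma-voom was 0.0180, in a fit that called 11 (1.80%) of 611 miRNAs lower. The call depended on single libraries. With 1 library left out, the filter was loosened to 10 reads in 2 libraries, which ESC libraries A and B alone met for mir-302b. Its adjusted p in limma-voom was then 0.00693 without ESC library C, 0.0278 without NC library C, 0.0923 without NC library A and 0.0859 without NC library B. Without ESC library A or B it did not pass the loosened filter either.

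mir-367, the last hairpin and the one with its own seed, was at the edge of detection. Its ESC libraries held 3, 0 and 0 reads, which is 1.85 normalized counts in library A, and its NC libraries held 0 reads. Both groups were at or under the floor of 3 reads, so no fold is given, and a difference was not detectable at this depth. mir-367 ranked 461 of the 549 miRNAs above 0 in ESCs, where mir-302a ranked 107, mir-302d 139, mir-302c 160 and mir-302b 336. In NCs, mir-302a, mir-302d and mir-302c ranked 308, 322 and 364 of 602.

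By their means the members had the same order in both groups, with mir-302b and mir-367 at 0 in NCs. In ESCs they ran mir-302a, mir-302d, mir-302c, mir-302b and mir-367, and the libraries of neighbours in this order did not overlap except for mir-302b and mir-367. In NCs the libraries of mir-302a (12.0 to 18.4) and mir-302d (10.2 to 15.4) overlapped, while those of mir-302c lay lower (3.42 to 7.37). Within libraries, the ratio of mir-302a to mir-302d was 2.05, 2.36 and 1.41 in the ESC libraries and 1.31, 1.80 and 0.778 in the NC libraries. The mean log2 ratio differed by -0.63 in NCs, which was not beyond the spread (exact permutation p = 0.2, adjusted p = 0.45 over 3 pairs of members). The ratio of mir-302c to mir-302d gave a change of -0.66 (exact permutation p = 0.3, adjusted p = 0.45) and that of mir-302a to mir-302c one of 0.03 (exact permutation p = 1). No outcome of these tests could have fallen under 0.05, since 0.1 is the smallest p that 3 libraries against 3 allow, so whether the members fell by different amounts is not settled by them. The change of the log2 ratio of mir-302a to mir-302d was -0.52 within the deeper libraries and -0.85 between the shallowest ones, with no test.

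The make-up of the cluster was compared in the same libraries. mir-302a made up 53.2% ± 4.56 (SD, n = 3) of the reads of the cluster in ESCs and 46.4% ± 8.90 in NCs. The share of mir-302d was 28.3% ± 5.46 in ESCs and 38.3% ± 10.2 in NCs, and that of mir-302c was 17.2% ± 1.80 and 15.2% ± 5.97. mir-302b held 1.17% ± 0.719 of the ESC reads and mir-367 held 0.103% ± 0.178. Exact permutation tests of the 5 shares gave p from 0.1 to 1, and adjusted p from 0.5 to 1 over the members, in a design where 0.1 is the smallest p possible. The NC shares rest on 18 to 77 reads a library. In both groups the shallowest library, C, held the largest share of mir-302d, 34.6% in ESCs and 50.0% in NCs.

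**Figure D3:**
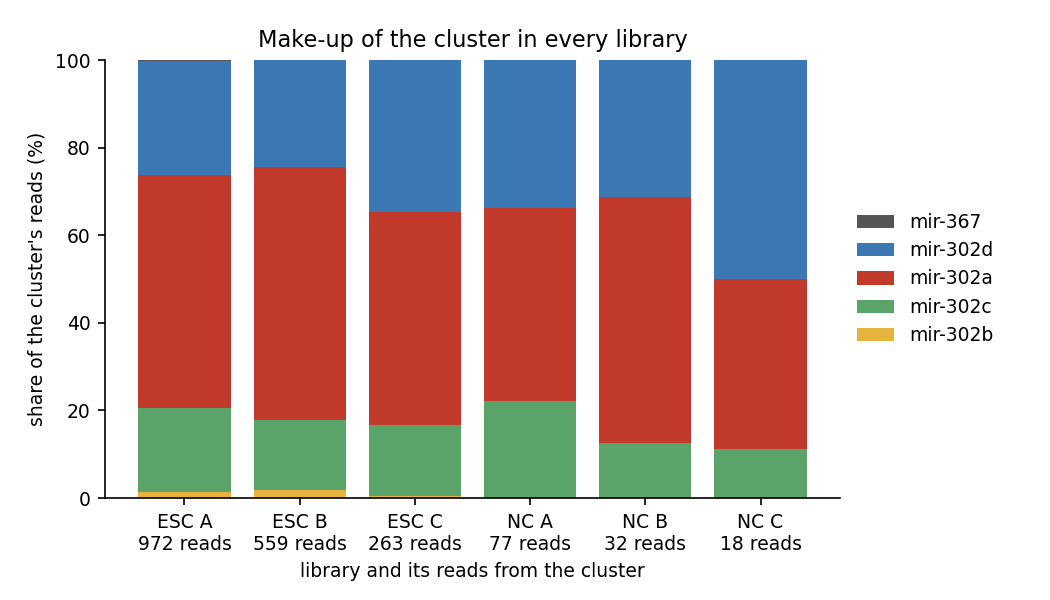
Bars show the share of each member among the reads of the cluster, in percent, for each library, with the number of reads under each bar. mir-302a and mir-302d together held most of the reads in all 6 libraries, and the NC bars rest on 77, 32 and 18 reads.

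Library C differed from A and B for single members, and whether this was beyond counting error was not tested. In NCs, library C held 7 reads of mir-302a and 9 of mir-302d. For mir-302a its log2(normalized count + 1) differed from the mean of A and B by -0.50 in ESCs and -0.43 in NCs, and for mir-302d by 0.14 and 0.48. The labels give no batch. Between the deeper libraries, A and B of each group, the difference between NCs and ESCs in log2(normalized count + 1) was -4.25 for mir-302a, -4.02 for mir-302c and -3.69 for mir-302d. Between the 2 shallowest libraries these differences were -4.18, -4.17 and -3.35, with no test.

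The other miRNA genes with a seed of the cluster were compared with its members. mir-302a, whose mature 3p entry was not used here, could not be placed by seed and is left out of the counts and sums of this group unless named. Besides mir-302b and mir-302d, 3 genes in the table had a listed arm with the seed AAGUGCU, and all 3 belong to the miR-290 to miR-295 cluster. Their entries are these.
miR-291a-3p: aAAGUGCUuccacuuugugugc
miR-294-3p: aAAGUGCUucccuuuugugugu
miR-295-3p: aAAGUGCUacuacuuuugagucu
mir-294 held 802, 671 and 586 normalized counts in ESC libraries A, B and C and 181, 141 and 239 in the NC libraries. It fell by 1.86 on the log2 scale (SE 0.30, adjusted p = 0.00854, limma-voom), and mir-295 fell by 2.24 (SE 0.36, adjusted p = 0.00836). mir-291a was not resolved in ESCs, and its authors' means were 34392 in ESCs and 6000 in NCs. Of the 5 genes with this seed listed, 3 were tested, and all 3 (mir-294, mir-295 and mir-302d) were called lower. Over all 317 miRNAs tested, 18 (5.68%) were called lower. The median log2 difference of the 3 genes was -2.24, against -0.06 over all miRNAs tested. The authors' means of the 5 summed to 36123 in ESCs and 6379 in NCs. mir-302b and mir-302d held 0.451% of this sum in ESCs and 0.193% in NCs. With mir-302a added to the sum, mir-302a, mir-302b and mir-302d held 1.27% of it in ESCs and 0.428% in NCs. The member mir-302c, listed with another seed, is not part of these sums. These are sums over gene rows, which do not part the arms.

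The larger difference of the miR-302 cluster is seen when it is set beside resolved genes of the miR-290 to miR-295 cluster in the same library. The summed level of the miR-302 cluster, divided by that of the 4 resolved and tested genes mir-290a, mir-291b, mir-294 and mir-295, was 0.212, 0.234 and 0.131 in the ESC libraries and 0.0450, 0.0539 and 0.0336 in the NC libraries. The groups did not overlap, and the mean log2 ratio differed by -2.10 in NCs (exact permutation p = 0.1, the smallest value possible). Taken against each of the 4 genes alone, the difference was -2.20 for mir-290a, -2.24 for mir-291b, -2.21 for mir-294 and -1.89 for mir-295, with no overlap between the groups in any of them. The cluster sums were already 14.4-fold apart at their nearest libraries, so the lack of overlap says little about these 4 genes. How many other miRNAs would give a ratio without overlap was not counted. The ratio to the 4 genes was chosen after the values were seen, and they are a minor part of the miR-290 to miR-295 cluster. The largest of them, mir-290a, had an ESC mean of 1350, against 78854 for mir-292. The abundant mir-291a, mir-292 and mir-293 were not resolved in ESCs. By the authors' means over all 8 genes listed, the miR-290 to miR-295 cluster was 246-fold above the miR-302 cluster in ESCs and 972-fold above it in NCs.

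**Figure D4:**
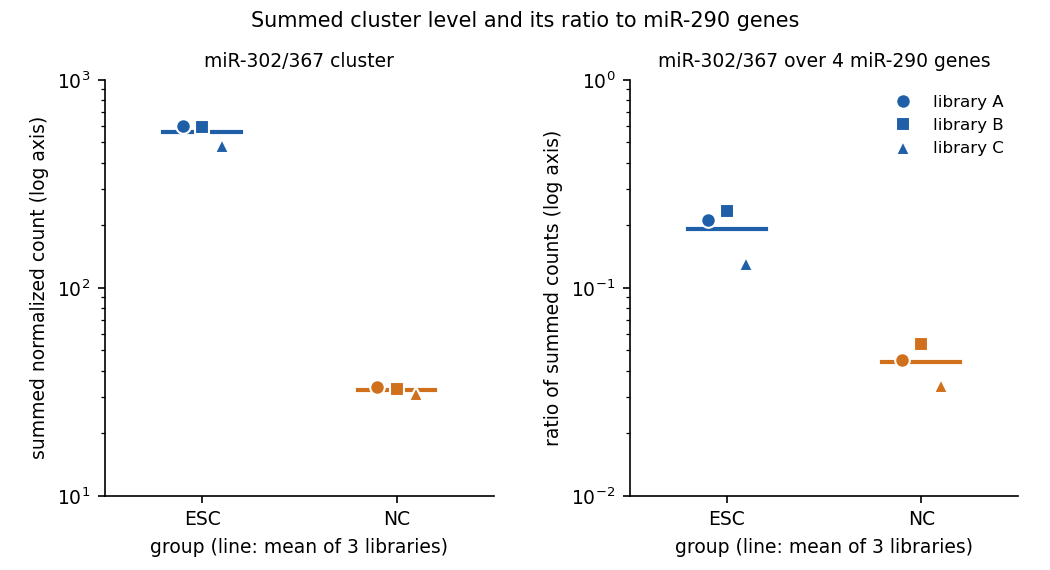
The left panel plots the summed normalized count of the 5 members in each library and the right panel its ratio to the sum of mir-290a, mir-291b, mir-294 and mir-295, both on log axes, with lines at the mean of 3 libraries. ESC sums lie between 480 and 599 and NC sums between 30.8 and 33.4, and the ratios do not overlap between the groups.

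The seed of miR-367 was carried by 6 other genes, mir-25, mir-32, mir-92a-1, mir-92a-2, mir-92b and mir-363, of which mir-25, mir-92a and mir-363 belong to the cluster of miR-17 and miR-92a and its paralogs. As an example from one of these, miR-92a-3p has the same capitals as miR-367-3p and another 3′ part.
miR-92a-3p: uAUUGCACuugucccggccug
The authors' means of the 7 genes with this seed summed to 2768 in ESCs and 3410 in NCs, and mir-367 held 0.0223% of the ESC sum. All 6 other genes were tested and 0 were called, with a median log2 difference of -0.05. At an unadjusted p under 0.05, 83 of the 317 miRNAs passed in this fit, and 0 of these 6 did. The library set (C against A and B) was defined by size factor alone, and no label ties library C of ESCs to library C of NCs. With this set as a covariate, limma-voom called 143 (45.1%) of all miRNAs tested, 68 (21.5%) lower and 75 (23.7%) higher. Of these 6 genes it called 2, mir-32 lower at -0.74 (adjusted p = 0.00547) and mir-92b higher by 1.06 (adjusted p = 0.0282), a share that is not above the one over all miRNAs. With only the 2 deeper libraries of each group, which called 162 (49.8%) of 325 miRNAs, 3 of the 6 were called, mir-32 lower and mir-92a-1 and mir-92b higher.

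The miR-17 family has a seed that is offset by 1 base, AAAGUGC, and is known to promote proliferation in many tissues. One entry is given for comparison with miR-302d-3p.
miR-17-5p: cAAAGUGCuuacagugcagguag
Of its 6 genes in the table, mir-17, mir-20a, mir-20b, mir-106a and mir-106b were tested, and mir-93 was not resolved. In the test 0 of 5 were called, 0 of 5 had an unadjusted p under 0.05, and the median log2 difference was 0.31. With the library set as covariate, 2 of the 5 were called, mir-17 higher in NCs by 0.62 (adjusted p = 0.000958) and mir-20a by 0.53 (adjusted p = 0.00540), in the fit that called 45.1% of all miRNAs. The summed authors' means of the 6 genes were 21103 in ESCs and 22895 in NCs.

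**Figure D5:**
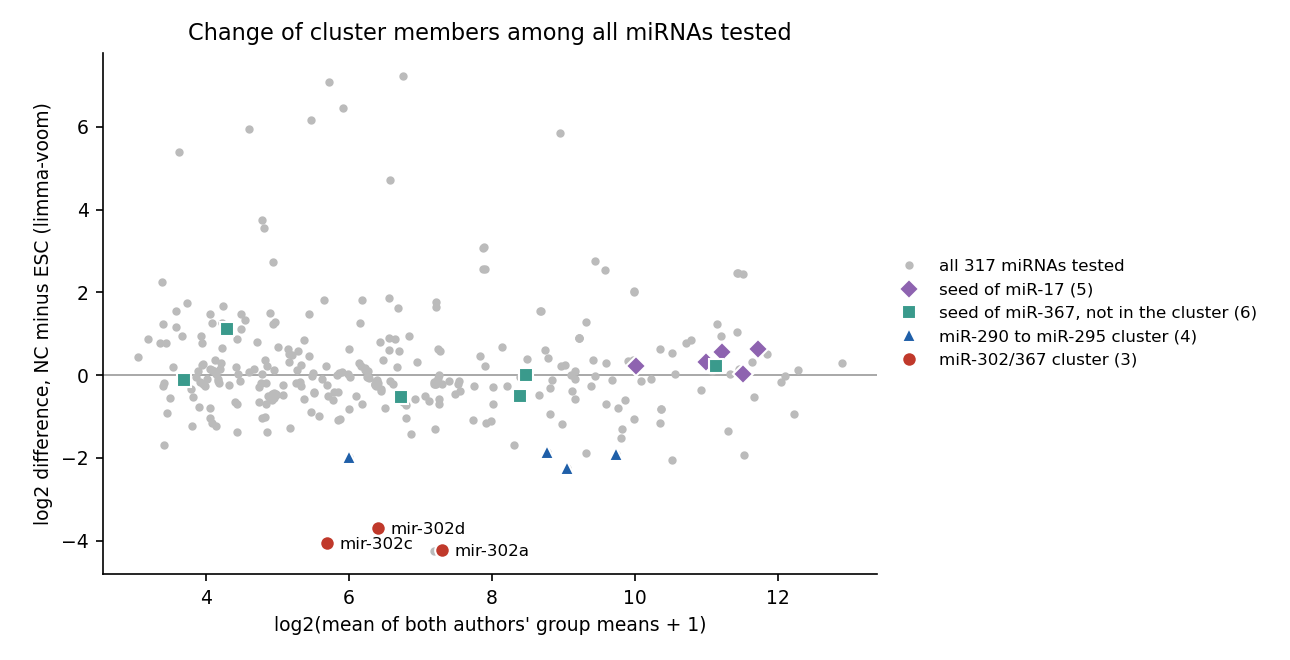
Each point is 1 of the 317 miRNAs tested, with the log2 of the mean of both authors' group means plus 1 on the x axis and the log2 difference between NCs and ESCs (limma-voom) on the y axis. The 3 cluster members tested lie between -4.23 and -3.69, below the 4 genes of the miR-290 to miR-295 cluster, while the genes with the seed of miR-367 or miR-17 lie between -0.54 and 1.12.

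The miRNAs most alike to the cluster in their profile were found by Pearson's r between log2(normalized count + 1) and the mean profile of mir-302a, mir-302c and mir-302d over the 6 libraries, among 314 other miRNAs. They were mir-329 (r = 0.98), mir-27b (0.98), mir-211 (0.98), mir-290a (0.97) and mir-294 (0.97). The 6 points share their size factors and fall into the 2 groups, so r mostly reads the difference between the groups, and no test is given. In size they differed, since mir-329 changed by -1.15 and mir-27b by -1.43 on the log2 scale against -4.24 for mir-211. mir-211 held 239, 241 and 342 normalized counts in ESC libraries A, B and C and 12.6, 12.3 and 23.9 in the NC libraries, close to mir-302a in level, with library C the highest in both groups where for mir-302a it was the lowest. The members were alike among themselves, with r of 0.99 between mir-302a and mir-302c, 0.98 between mir-302a and mir-302d and 0.98 between mir-302c and mir-302d.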

How the data were processed

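Small-RNA libraries of 3 ESC and 3 NC samples were analysed, grouped by their labels. The authors deposited 1 table for 898 miRNA genes, with 2 signal columns, the means of ESCs and of NCs in reads scaled by a size factor for every library. Its other columns hold the authors' own comparison (an overall mean, fold changes and p-values) and were not used. The submitters' processing notes name DESeq and mm10. Adapter removal, the aligner, the annotation of miRNAs and the treatment of reads that match several hairpins are not given in the sources used here.

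Each deposited mean adds up whole reads of 3 libraries, each worth a fixed step, so the reads per library were found by enumeration from its 10 decimals (for means up to 12000), and the procedure was tested on simulated data. In ESCs 531 of the 549 miRNAs above 0 were resolved, and in NCs 582 of 602. Libraries carry no replicate number. The precision was set by the shallowest libraries, and intervals and floors (3 reads) cover counting error only.

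The comparison used limma 3.58.1 (R 4.3.3) with voom weights and the recovered size factors, on the 317 of 611 miRNAs that had 10 reads or more in no fewer than 3 libraries (no fewer than 2 in fits where libraries were left out), with Benjamini-Hochberg adjustment over all tested and calls at an adjusted p under 0.05. Sums, shares and ratios were compared over libraries by two-sided exact permutation tests in scipy 1.17.1 (Python 3.11.15, numpy 2.4.6, pandas 2.3.3). Sequences were those of RefSeq on GRCm38.p6, matched by name for 759 of the 898 genes, and positions those of GENCODE M21 on GRCm38. Named miRNAs were the members, those sharing a seed with them, the miR-290 to miR-295 cluster, the 5 with the most similar profile and the largest miRNA of each group. The members and these lists were chosen with earlier results of these data known. mir-211, mir-142 and the 4 genes in the ratio of the clusters were named after their values were seen. Alternatives covered the filter, the test, the scaling, the library set, the pseudocount and single libraries.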

Additional observations from a re-analysis of the deposited data

How the results depend on the processing

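The count of cluster members called ranged from 3 to 4 over the alternatives that tested any. The fourth was mir-302b, which entered only fits without a filter or with the looser one of 10 reads in 2 libraries. Of 53 alternative values of single members, 46 kept their direction and their call or moved by less than the spread between libraries. No member passed a filter of 10 reads in every library, so that setting gave no value for the cluster. All miRNAs called (50, of which 18 lower in NCs) came to 162 (70 lower) with the 2 deeper libraries of each group, 143 (68 lower) with the library set as covariate, 30 with at least 10 reads in every library and, counting only those lower, 11 without a filter. Leaving out 1 library gave 17 to 52 in all and 6 to 20 lower, and it moved the count by over 1.5 times without ESC library A (17), ESC library B (19), NC library B (22) or NC library A (31). The cause was not tested. The log2 difference of the summed cluster level (-4.11) was -4.59 as a share of the summed means, and -4.21 to -4.06 when 1 library was left out. Scaling each library to equal totals of resolved reads moved the median log2 difference of all miRNAs tested from -0.06 to -0.18. From the authors' means with a pseudocount of 1, mir-302a differed by -4.22, by -4.67 with both groups at the same summed mean and by -3.81 with the same but without mir-10a. The change in share of mir-302c (-1.94 percentage points) reversed to 0.119 without NC library C, and its range over the libraries left out was -5.36 to 0.119. The ranges for the other shares were -11.7 to -3.01 for mir-302a, -1.56 to -0.859 for mir-302b, 4.16 to 13.5 for mir-302d and -0.154 to 0 for mir-367, whose reads all came from ESC library A. The ratio to the 4 miR-290 genes (-2.10) ranged from -2.36 to -1.92 without 1 library. Of the genes with the seed of miR-367, 0 were called in the comparison of all 6 libraries. With the library set as covariate 1 was called lower (mir-32) and mir-92b higher. With the 2 deeper libraries, where 162 (49.8%) of 325 miRNAs were called, 1 was again lower (mir-32), while mir-92a-1 (0.72, adjusted p = 0.000234) and mir-92b (1.27, adjusted p = 0.0211) were higher. Those fits of seed families, and the ratio, were added with the data in view. No paired analysis was possible because nothing ties a library to a replicate number of the labels.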
